A study of Mus musculus with 9 samples.

Results

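Microglia identity genes were followed in whole hippocampus of 11-day-old mice that lacked Slc38a3 in endothelial cells. Of 34 microglia symbols listed, 33 matched a gene name in the deposited table, and all 33 averaged at least 10 normalized counts over the 9 libraries. They were 33 of the 57180 genes in the table and of the 17036 genes that reached that mean and were tested. The remaining symbol, Fcrls, matched no gene name, and its identifier ENSMUSG00000015852 carries the name Fcrl2 in the table, so that gene is described beside the 33. The list was proposed with earlier results of these data known, although its rule uses the mean level and no difference between the genotypes.

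RNA-seq was made from hippocampi of C57BL6 mice, 5 of them wild type (WT) and 4 carrying a Slc38a3 knockout selective for endothelium (cKO). The cKO group held 3 males (replicates 1, 3 and 4) and 1 female (replicate 2), and the WT group held 1 male (replicate 1) and 4 females (replicates 2 to 5). Neither the driver of the endothelial deletion nor the litters are given in the labels. The p-values thus measure only how far these samples spread. Reads recovered from the normalized counts numbered 30803135 to 33134405 per WT library and 32096409 to 34034530 per cKO library. Slc38a3, which encodes the glutamine transporter SNAT3, was 1804 to 3514 normalized counts in the WT libraries and 308 to 405 in the cKO libraries. WT replicates 2 and 5 stood apart at 2033 and 1804, below the other 3 WT libraries at 3363 to 3514. Slc38a3 fell 7.97-fold in cKO (a log2 difference of -2.99 ± 0.221, SE, limma adjusted p = 5.54e-05).

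Microglia are the resident macrophages of the brain parenchyma, settle there in the embryo, and survive through the growth factor receptor Csf1r. They sense nucleotides through P2Y receptors and neuronal fractalkine through Cx3cr1, and in the postnatal hippocampus they clear dying cells and take up synaptic material. Their identity rests on transcription factors such as Spi1 (PU.1), Irf8 and Sall1, and many of their genes are shared with the macrophages of the brain borders. Itgb5, Slco2b1 and Sall1 are also expressed by other cells of the brain.

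No member passed the test between the genotypes (0 of 33 by limma at an adjusted p under 0.05), where 59 of all 17036 genes passed, or 0.346% (0.123% higher and 0.223% lower in cKO). On the recovered reads edgeR called 0 members and DESeq2 called 1, P2ry12. Over all genes, edgeR called 22 higher and 35 lower in cKO, and DESeq2 called 69 higher and 130 lower. At an unadjusted limma p under 0.05 there were 11 members, 33.3% of the 33, against 11.3% of all genes. Of these 11, 6 were higher in cKO (Irf8, Ctss, Mpeg1, Cd68, Cd14 and Ly86; 4.94% of all genes were higher by that measure) and 5 were lower (P2ry12, Cx3cr1, Sall1, Csf1r and P2ry13; 6.4% of all genes). Fewer members reached that threshold without WT replicate 1, the only WT male, or without cKO replicate 2, the only cKO female. Leaving out cKO replicate 3, or WT replicate 2, 3 or 5, also gave fewer. The share of all genes that reached it in these fits was not counted. With sex as a term, leaving out WT replicate 1 or cKO replicate 2 leaves the genotype difference to 1 sex. Fold changes without WT replicate 1 are thus also those within females, and those without cKO replicate 2 are those within males.

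The ranges of the cKO and the WT libraries were separate for 7 members, 21.2% of the 33, against 6.29% of all genes. In cKO, 2 of them were higher (Irf8 and Mpeg1; 2.58% of all genes) and 5 were lower (P2ry12, Cx3cr1, Csf1r, P2ry13 and Olfml3; 3.72% of all genes). Fold changes lay on both sides of 0, with 18 of 33 below it, 8715 of 17036 below it among all genes, and a median log2 fold change of -0.05 for the members and -0.0034 for all genes. The member median came to 0.0084 without WT replicate 1. The summed level of the 33 genes was 15838 ± 321 normalized counts in WT (SD, n = 5) and 14816 ± 637 in cKO (SD, n = 4), with cKO replicate 2 at 15747 and the other 3 cKO libraries at 14304 to 14634. The mean log2 level of the 33 genes, which weights each gene equally, was 8.19 ± 0.0438 in WT and 8.17 ± 0.0530 in cKO (SD). In RNA from whole tissue, fewer cells of a type and less RNA per cell cannot be told apart.

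**Figure D1:**
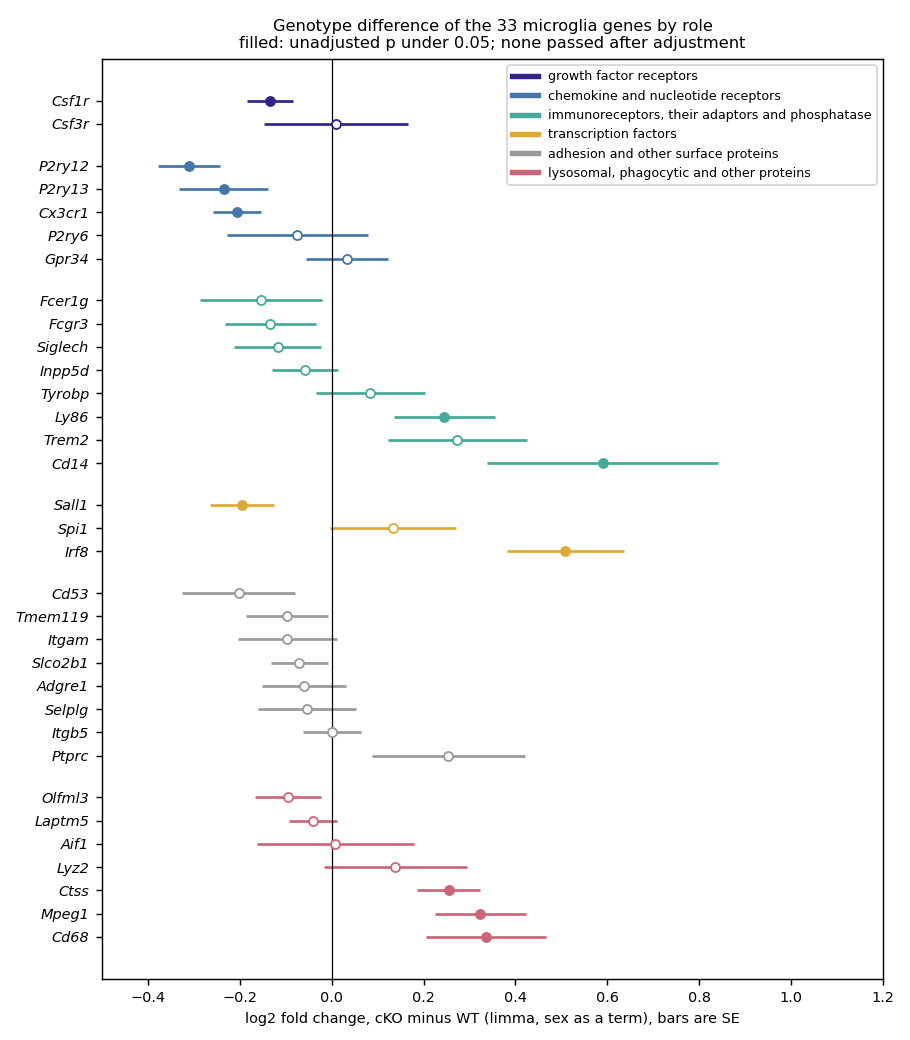
Log2 fold change of each of the 33 microglia genes, cKO minus WT, from limma with sex as a term (x axis), with the SE as bars, grouped and coloured by role (y axis); filled points have an unadjusted p under 0.05. The receptors P2ry12, P2ry13 and Cx3cr1 lie to the left of 0 and Irf8, Cd14, Cd68, Mpeg1 and Ctss to the right, and no gene passed after adjustment.

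The bases before the transcription start are shown for the 4 members of smallest p, P2ry12 and Cx3cr1 (lower in cKO) and Irf8 and Ctss (higher in cKO), because PU.1, encoded by the member Spi1, binds the regulatory regions of many microglia genes. The sequences are from RefSeq on GRCm38.p6, 250 bases each, 5′ to 3′ on the gene's strand. They lie at chr3:59262986-59263235 (minus strand) for P2ry12, chr9:120068297-120068546 (minus strand) for Cx3cr1, chr8:120736108-120736357 (plus strand) for the upstream of 2 Irf8 starts, and chr3:95526536-95526785 (plus strand) for Ctss. Capitals mark the PU.1 core AGGAAGT.
P2ry12: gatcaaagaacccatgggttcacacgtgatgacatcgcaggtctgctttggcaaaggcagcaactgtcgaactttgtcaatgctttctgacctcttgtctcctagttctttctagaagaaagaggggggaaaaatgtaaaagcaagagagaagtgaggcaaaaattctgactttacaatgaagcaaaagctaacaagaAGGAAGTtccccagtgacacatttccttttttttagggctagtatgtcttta
Cx3cr1: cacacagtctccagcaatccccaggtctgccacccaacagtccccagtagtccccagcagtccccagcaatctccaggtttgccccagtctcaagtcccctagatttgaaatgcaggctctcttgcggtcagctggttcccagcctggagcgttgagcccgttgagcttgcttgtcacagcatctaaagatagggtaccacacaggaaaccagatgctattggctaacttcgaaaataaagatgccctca
Irf8: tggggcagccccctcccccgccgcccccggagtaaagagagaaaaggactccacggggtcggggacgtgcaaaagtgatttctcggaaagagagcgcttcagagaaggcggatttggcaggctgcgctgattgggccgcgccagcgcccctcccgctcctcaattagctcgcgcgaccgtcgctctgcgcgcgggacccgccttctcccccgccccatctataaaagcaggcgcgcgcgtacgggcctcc
Ctss: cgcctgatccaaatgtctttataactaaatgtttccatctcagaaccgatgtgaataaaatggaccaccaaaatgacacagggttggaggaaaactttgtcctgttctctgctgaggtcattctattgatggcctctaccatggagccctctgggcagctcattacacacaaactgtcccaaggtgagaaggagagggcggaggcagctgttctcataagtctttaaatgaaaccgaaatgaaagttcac
The core lay 52 to 46 bases before the start of P2ry12, on the strand of the gene. The bases after this start were in no GENCODE M21 transcript of P2ry12, unlike those of the other 3 windows shown. The core was found in none of those 3, which says only that these letters are not there.

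Of the 33 members, 24 had at least 1 such window in the RefSeq table, 31 windows in all. Both strands were searched for AGGAAGT and for the composite of a PU.1 and an interferon regulatory factor site (GGAA, then 2 bases of any kind, then GAAA), and a match of 1 motif can overlap a match of the other. AGGAAGT was present in 6 of the 31 windows (19.4%), those of Inpp5d, Lyz2, P2ry12, Ptprc and Sall1, and in 2525 of all 32851 windows of that length (7.69%). The 2 windows of Ptprc overlap and have 1 match in common, which was counted in both. For 26 of the 31 windows the bases after the start were in a GENCODE M21 transcript of the gene, and 4 of these 26 held the core. The 2 further windows with the core were those of P2ry12 and Sall1. The composite was present in 0 of 31 windows and in 756 of all windows (2.3%). The genes with an AGGAAGT match differed in direction between the genotypes, with a log2 fold change of -0.31 for P2ry12 and -0.19 for Sall1, -0.06 for Inpp5d, 0.14 for Lyz2 and 0.25 for Ptprc.

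Per kilobase of exon, the WT level of the members ranged from 5.40 normalized counts for Ptprc to 506 for P2ry12, with a median of 115. Next to P2ry12 stood Csf1r at 461, Ctss at 444, Cx3cr1 at 384 and Itgb5 at 308 normalized counts per kilobase. The normalized counts in the rest of the text are not scaled for length and so set the counting depth, with a mean over 9 libraries from 34.6 for Cd14 to 2542 for Csf1r. The spread between WT libraries, as the coefficient of variation, had a median of 8.36% over the members and ran from 1.47% for Slco2b1 to 20.6% for Cd14. Counting error alone gave a median of 5.81% and reached 19.1% for Cd14, so the WT libraries of that gene varied little beyond it. In cKO the coefficient ran from 2.36% for Olfml3 to 22.6% for Ptprc, with a median of 9.63%.

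Csf1r, the receptor for colony stimulating factor 1 and interleukin 34, lies on chromosome 18 (61233669 to 61265221 in GRCm39, the build of all gene coordinates that follow). WT replicates 1 to 5 held 2679, 2624, 2585, 2820.4 and 2594 normalized counts, and cKO replicates 1 to 4 held 2314, 2493, 2481 and 2293. Every cKO library lay below every WT library. The group means were 2660.2 ± 96.8 in WT and 2395 ± 106 in cKO (SD), a log2 fold change of -0.13 ± 0.0496 (SE, limma adjusted p = 0.325). Csf3r, the granulocyte growth factor receptor, differed by 0.01 on the log2 scale, at 84.3 ± 10.8 in WT and 82.2 ± 7.54 in cKO (SD).

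Of the 5 chemokine and nucleotide receptors, 3 were lower in cKO at an unadjusted limma p under 0.05 (6.4% of all genes were), and the same 3 had no overlap of the groups (3.72% of all genes lower without overlap). The median log2 fold change of the 5 was -0.21. P2ry12, the ADP receptor that steers microglial processes toward injury (chromosome 3, 59123692 to 59170292), held 1261, 1286, 1234, 1384 and 1277 normalized counts in WT replicates 1 to 5. In cKO replicates 1 to 4 it held 895, 1144, 895 and 976. The female cKO replicate 2 was the highest of the cKO libraries and still lay below the lowest WT library. From 1288 ± 56.8 in WT to 977 ± 117 in cKO (SD), the log2 difference was -0.31 ± 0.0682 (SE, 1.24-fold lower, lower in 4 of 4 cKO libraries), the smallest p of the members (limma adjusted p = 0.0844).

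The call for P2ry12 changed with the model. It passed with DESeq2 on the recovered reads (log2 fold change -0.31, adjusted p = 0.00850) and with limma without the sex term (-0.40, adjusted p = 0.0102). Without that term a difference between the sexes can enter the genotype difference, because most cKO libraries were male and most WT libraries female. P2ry12 also passed with each library scaled to the mean of the members, which includes P2ry12 itself (-0.34, limma adjusted p = 0.0344). With edgeR the adjusted p was 0.0895. Leaving out 1 library moved the log2 fold change from -0.18 without WT replicate 1 (limma adjusted p = 0.357) to -0.45 without cKO replicate 2 (limma adjusted p = 0.107).

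Cx3cr1, the fractalkine receptor (chromosome 9, 119877748 to 119898945), held 1746, 1741, 1677, 1799 and 1685 normalized counts in WT replicates 1 to 5. The cKO replicates 1 to 4 held 1385, 1575, 1446 and 1467, again below all WT libraries and highest in the female. The means were 1729.7 ± 49.96 in WT and 1468 ± 79.0 in cKO (SD), a log2 fold change of -0.21 ± 0.0515 (SE, 1.15-fold lower, limma adjusted p = 0.158). Without the sex term it was -0.24 (limma adjusted p = 0.0182), and without WT replicate 1 it was -0.13 (limma adjusted p = 0.401).

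P2ry13, a further ADP receptor that lies next to P2ry12 (chromosome 3, 59115312 to 59118303), held 364, 353, 371, 421 and 331 normalized counts in WT replicates 1 to 5. It held 319, 324, 274 and 299.9 in cKO replicates 1 to 4, below all WT libraries, with a narrow gap between 324 and 331. The log2 difference between the genotypes was -0.23 ± 0.0970 (SE, from 368 ± 33.1 to 304 ± 22.8, SD, limma adjusted p = 0.386). P2ry6, the UDP receptor linked to phagocytosis, and Gpr34, a lysophosphatidylserine receptor, differed by -0.07 and 0.03 on the log2 scale, and their groups overlapped.

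P2ry12 and P2ry13 both lie within Med12l, a mediator subunit gene, and the labels do not say whether the counting used strand. Where exons of such genes overlap, their reads cannot then be told apart. The overlap was read from the start and end of each gene, and overlap of exons was not checked. Med12l itself was 1589 ± 95.7 in WT and 1649 ± 85.9 in cKO (SD), a log2 fold change of -0.0021 ± 0.0570 (SE, limma adjusted p = 0.992). Csf1r overlaps Hmgxb3, whose log2 difference was -0.04 ± 0.0512 (SE, limma adjusted p = 0.792), and Gpr34 lies in Cask, at -0.09 ± 0.0383 (SE, limma adjusted p = 0.400). The genes that overlap Cx3cr1 and Sall1, Gm33858 and Gm3134, had means of 14.5 and 13.3 normalized counts over the 9 libraries.

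**Figure D2:**
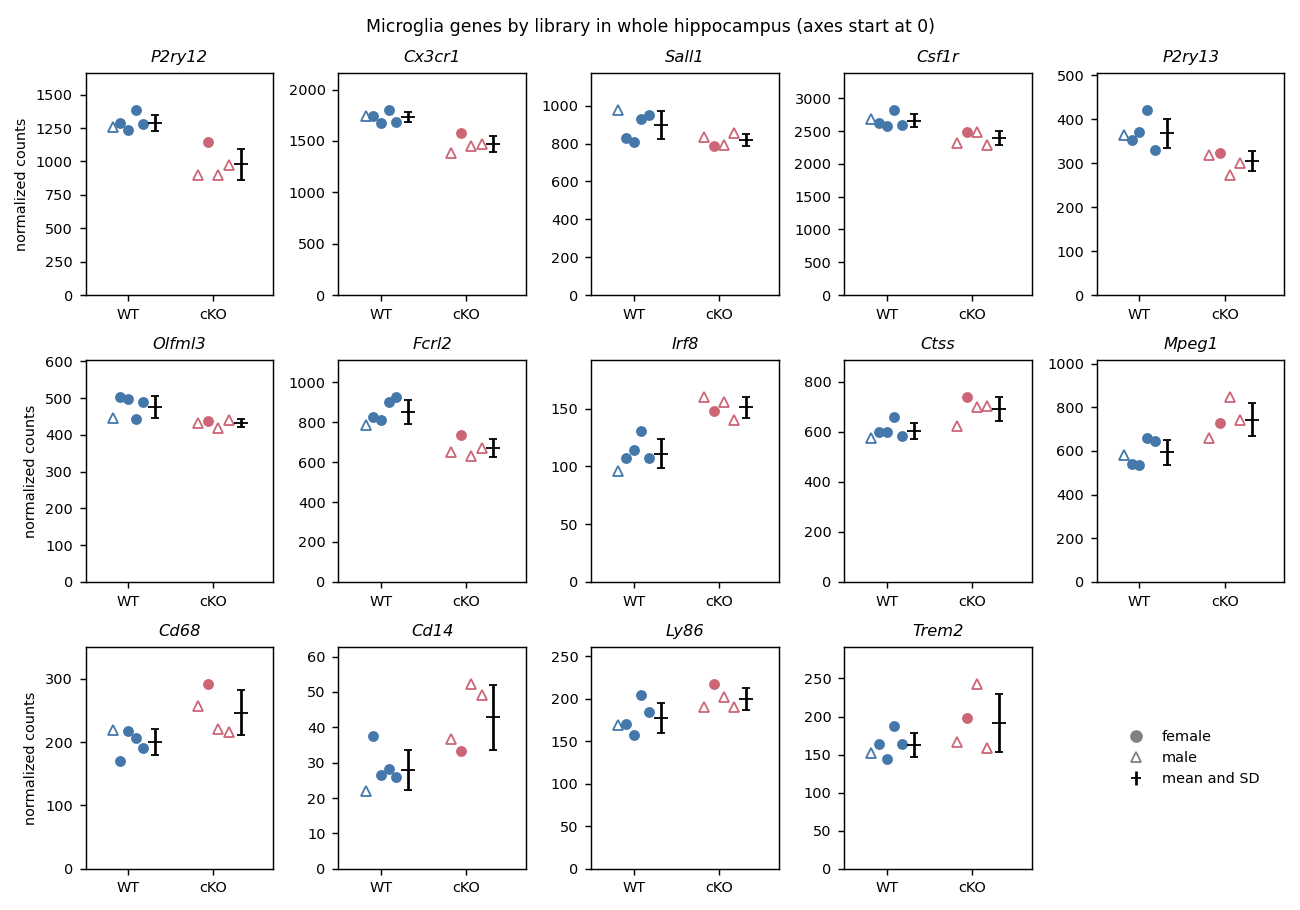
Normalized counts (y axes, each from 0) of 13 microglia genes and Fcrl2 in the 5 WT and 4 cKO libraries (x axes), with females as filled circles, males as open triangles, and the group mean and SD beside them. P2ry12, Cx3cr1, Csf1r, P2ry13, Olfml3 and Fcrl2 are lower in all 4 cKO libraries and Irf8 and Mpeg1 higher, while the groups overlap in the other genes.

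The 8 immunoreceptors, adaptors and phosphatase had a median log2 fold change of 0.01, with 2 members higher in cKO at an unadjusted limma p under 0.05 (4.94% of all genes) and none lower (6.4% of all genes). Cd14, the coreceptor for lipopolysaccharide (chromosome 18, 36858119 to 36859851), held 21.9, 37.4, 26.4, 28.1 and 25.8 normalized counts in WT replicates 1 to 5 and 36.8, 33.3, 52.2 and 49.0 in cKO replicates 1 to 4. WT replicate 2 overlapped the lower cKO libraries. Its log2 fold change was the largest of the members at 0.59 ± 0.252 (SE, 27.9 ± 5.75 against 42.8 ± 9.21, SD, limma adjusted p = 0.403), and it came to 0.19 without WT replicate 1 and 1.02 without cKO replicate 2.

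Ly86, the MD-1 protein that pairs with the Toll-like receptor homologue Cd180 (chromosome 13, 37529183 to 37603012), held 169, 170.3, 157, 204 and 185 normalized counts in WT replicates 1 to 5. In cKO replicates 1 to 4 it held 189.9, 217, 202 and 190.5, above 4 of the 5 WT libraries. On the log2 scale the difference was 0.24 ± 0.110 (SE, limma adjusted p = 0.425).

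Trem2, the lipid-sensing receptor that signals through Tyrobp (chromosome 17, 48653428 to 48661175), held 153, 164, 145, 188 and 163 normalized counts in WT replicates 1 to 5 and 166, 198, 243 and 158 in cKO replicates 1 to 4. The groups overlapped, with cKO replicate 3 apart at 243. Its log2 difference was 0.27 ± 0.151 (SE, limma adjusted p = 0.518). The adaptor Tyrobp differed by 0.08 and the Fc receptor gamma chain Fcer1g by -0.15 on the log2 scale. Fcgr3, a low-affinity Fc receptor, differed by -0.13, the lectin Siglech by -0.12 and the inositol phosphatase Inpp5d by -0.06. The related genes Fcgr2b and Fcgr4 held 95.7 and 5.33 normalized counts in WT and 102 and 4.60 in cKO, on average.

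Fcrl2, the gene that carries the identifier of the listed Fcrls, an Fc receptor-like molecule of microglia (chromosome 3, 87158064 to 87171045), held 784, 828, 809.8, 899 and 926 normalized counts in WT replicates 1 to 5. The cKO replicates 1 to 4 held 648, 736, 629 and 669, all below the WT libraries, again with the female highest. That gave a log2 difference of -0.25 ± 0.0640 (SE, 849 ± 60.4 against 671 ± 46.8, SD, 1.19-fold lower, limma adjusted p = 0.161). Without the sex term, so that a difference between the sexes can enter, it was -0.34 (limma adjusted p = 0.0187).

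The 3 transcription factors differed in direction. Irf8, an interferon regulatory factor needed for microglial development (chromosome 8, 121463096 to 121483433), held 95.7, 107, 114, 131 and 108 normalized counts in WT replicates 1 to 5 and 160.1, 148, 156 and 140.5 in cKO replicates 1 to 4. All 4 cKO libraries lay above all 5 WT libraries. The genotype difference in log2 was 0.51 ± 0.128 (SE, 111 ± 12.8 against 151 ± 8.67, SD, 1.42-fold higher, limma adjusted p = 0.161).

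Sall1, a zinc finger factor that maintains microglial identity (chromosome 8, 89753862 to 89770790), held 976, 829.9, 808, 928 and 951 normalized counts in WT replicates 1 to 5. In cKO replicates 1 to 4 it held 832, 789, 791 and 856, so that the 2 highest cKO libraries overlapped WT replicates 2 and 3. This amounted to a log2 difference of -0.19 ± 0.0696 (SE, 898 ± 75.1 against 817 ± 32.6, SD, limma adjusted p = 0.312). Spi1, which encodes PU.1, was 105 ± 9.08 in WT and 114 ± 12.5 in cKO (SD), a log2 fold change of 0.13, with overlapping groups.

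None of the 8 adhesion and other surface proteins had an unadjusted limma p under 0.05 or groups without overlap, and 6 of the 8 had a fold change below 0 (8715 of 17036 among all genes). The microglial surface protein Tmem119 was 396 ± 40.8 in WT and 335 ± 40.5 in cKO (SD), a log2 fold change of -0.10. The tetraspanin Cd53 was lowest of the 8 at -0.20, and Ptprc, the leukocyte phosphatase CD45, was highest at 0.25. Without WT replicate 1 they came to -0.12 and 0.07, and without cKO replicate 2 to -0.29 and 0.45. For Ptprc the WT libraries held 92.9 to 108 normalized counts and cKO replicates 1 to 4 held 163, 105, 103 and 134, so replicates 1 and 4 lay above the WT range and the other 2 within it. The integrin alpha chain Itgam and beta chain Itgb5 differed by -0.10 and 0.0002, the adhesion receptor Adgre1 (F4/80) by -0.06, the selectin ligand Selplg by -0.05 and the organic anion transporter Slco2b1 by -0.07.

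The 7 lysosomal, phagocytic and other proteins had a median log2 fold change of 0.14, with 5 of 7 above 0 (8321 of 17036 among all genes) and 3 higher in cKO at an unadjusted limma p under 0.05 (4.94% of all genes). Ctss, the lysosomal cysteine protease cathepsin S (chromosome 3, 95434096 to 95463714), held 573, 600.3, 600.5, 659 and 584 normalized counts in WT replicates 1 to 5 and 624, 738, 699 and 702 in cKO replicates 1 to 4. The groups overlapped at WT replicate 4 and cKO replicate 1. In log2 units the difference was 0.25 ± 0.0688 (SE, 603 ± 32.99 against 691 ± 47.8, SD, 1.19-fold higher, limma adjusted p = 0.175).

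Mpeg1, which encodes the pore-forming protein perforin-2 of phagosomes (chromosome 19, 12438142 to 12442647), held 583, 542, 535, 658 and 647 normalized counts in WT replicates 1 to 5. The cKO replicates 1 to 4 held 660.2, 729, 847 and 739, above all WT libraries, although only just so for replicate 1. The log2 difference came to 0.32 ± 0.0990 (SE, 593 ± 57.4 against 744 ± 77.0, SD, limma adjusted p = 0.238).

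Cd68, a lysosomal membrane glycoprotein (chromosome 11, 69555038 to 69556979), held 218, 170.3, 218, 206 and 190.3 normalized counts in WT replicates 1 to 5 and 258, 292, 221 and 216 in cKO replicates 1 to 4. The female cKO replicate 2 was the highest and replicate 4 lay below 2 WT libraries. With sex as a term the log2 difference was 0.34 ± 0.130 (SE, 201 ± 20.4 against 246 ± 35.5, SD, limma adjusted p = 0.350). It came to 0.08 without cKO replicate 2 and 0.58 without WT replicate 1.

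Olfml3, a secreted olfactomedin-like protein (chromosome 3, 103629537 to 103645317), held 445, 503, 497, 444 and 489 normalized counts in WT replicates 1 to 5 and 432, 439, 418 and 440.4 in cKO replicates 1 to 4. The cKO libraries lay below all WT libraries, by a small margin from WT replicates 1 and 4. The modelled log2 difference was -0.09 ± 0.0716 (SE, limma adjusted p = 0.646), and -0.05 without cKO replicate 2. The remaining members of this role differed little, with the lysosomal membrane protein Laptm5 at -0.04, the actin-binding protein Aif1 (IBA1) at 0.01 and the lysozyme Lyz2 at 0.14 on the log2 scale. The lysozyme copy Lyz1 was 2.81 normalized counts in WT and 1.22 in cKO, on average.

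Across all roles, the 20 members outside the rule for library values had log2 fold changes from -0.20 (Cd53) to 0.25 (Ptprc), 12 below 0 and 8 above it. The smallest p among them was 0.122 (limma adjusted p = 0.558).

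**Figure D3:**
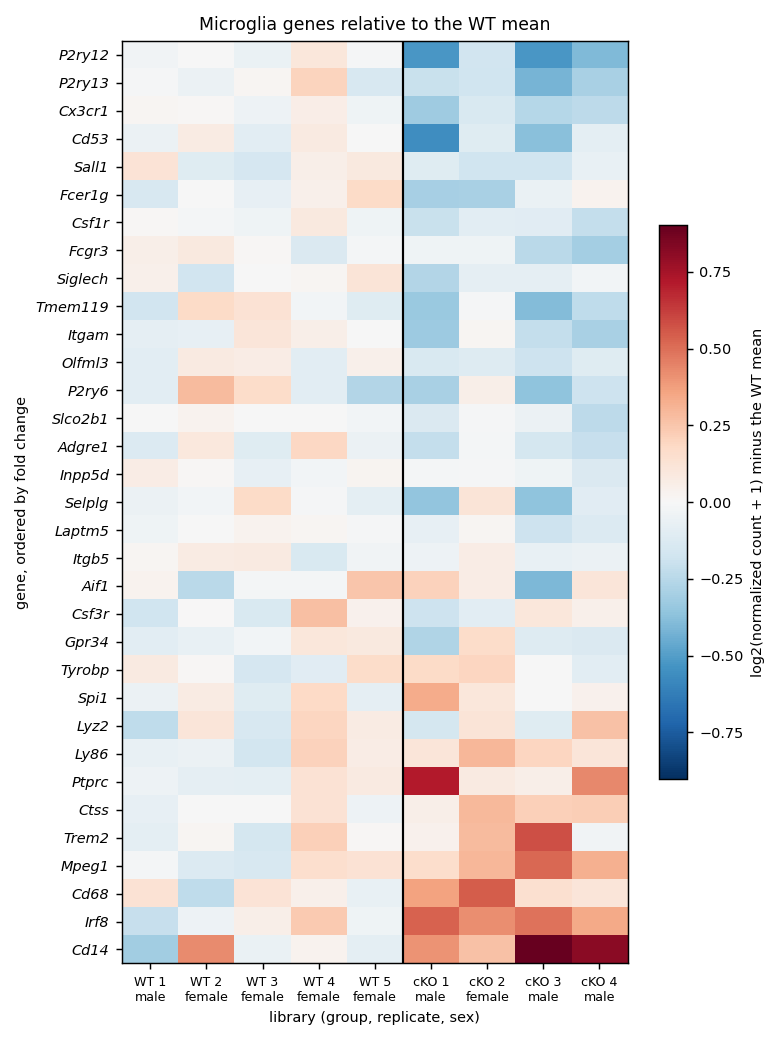
Log2(normalized count + 1) of the 33 microglia genes minus the mean of the 5 WT libraries (colour), with genes ordered by fold change (y axis) and the 9 libraries labelled by group, replicate and sex (x axis). Among the cKO libraries, replicate 2 is the highest for 19 of the 33 genes.

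Some libraries were the highest or the lowest of their group for many members. The female cKO replicate 2 was the highest of the 4 cKO libraries for 19 of the 33 members, where 29.3% of all genes had it highest, and the lowest for 2, where 27.7% of all genes had it lowest. WT replicate 4 was the highest WT library for 16 members, against 20.8% of all genes. The female WT replicate 3 was the lowest WT library for 12 members, and its share of all genes was not counted. WT replicate 1, the only WT male, was the lowest for 11 members, against 20.8% of all genes. With 1 library left out, the fold change of 25 of the 33 members moved by over 1.5 times. The share of all genes that did so was not counted, and fold changes near 0 pass this limit easily. For 23 of these 25 it came nearest to 0 or turned furthest without WT replicate 1 or without cKO replicate 2. Each of these libraries is the only one of its sex in its group. A fit with sex as a term thus leans most on them, for any gene.

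The difference between the sexes came from the same limma model, with genotype as a term. No member passed (0 of 33 at an adjusted p under 0.05, where 9 of all genes, 0.0528%, passed), and 3 members had an unadjusted p under 0.05, against 6.73% of all genes. All 3 were lower in males, as 3.19% of all genes were by that measure. The fold change of males minus females was below 0 for 27 of 33 members (8490 of 17036 among all genes). Its median on the log2 scale was -0.07 for the members and 0.00028 for all genes. Tmem119 held 350.0, 313, 299.9 and 337 normalized counts in the males (WT replicate 1 and cKO replicates 1, 3 and 4) and 366 to 443 in the 5 females. Its log2 difference of males minus females was -0.26 ± 0.0889 (SE, limma adjusted p = 0.685). Gpr34 held 298, 264, 293 and 290.4 in the males and 303 to 356 in the females (-0.22 ± 0.0889, SE, limma adjusted p = 0.711). P2ry12 differed by -0.17 ± 0.0682 (SE, limma adjusted p = 0.711). Most of the males were cKO and most of the females WT, so the library values of each sex also hold the genotype difference.

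Whether the genotype difference itself differed between the sexes was tested by an interaction term, which rests on 1 WT male and 1 cKO female. No member passed (0 of 33 by limma, where 1 of all genes, 0.00587%, passed), and 2 members had an unadjusted p under 0.05, against 7.9% of all genes. P2ry12 had an interaction of -0.27 ± 0.116 (SE, limma adjusted p = 0.613), from genotype differences of -0.45 in males and -0.18 in females. Cd68 had -0.50 ± 0.229 (SE, limma adjusted p = 0.630), from 0.08 in males and 0.58 in females, and Cd14 had 0.83 ± 0.467 (SE, limma adjusted p = 0.650).

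A list of 56 further microglia-enriched genes held 55 that were tested, and none of these passed with all 9 libraries. At an unadjusted limma p under 0.05, 7 were higher in cKO (4.94% of all genes) and 3 were lower (6.4% of all genes). The median log2 fold change of the 55 was -0.01. Crybb1, a crystallin gene expressed in early postnatal microglia, held 201, 189, 194, 184 and 174 normalized counts in WT replicates 1 to 5 and 98.4, 156, 97.7 and 77.3 in cKO replicates 1 to 4. All cKO libraries were below all WT libraries, with the female nearest to them, and the log2 difference was -0.68 ± 0.171 (SE, limma adjusted p = 0.161). It came to -0.25 without WT replicate 1 and -1.14 without cKO replicate 2. Crybb1 passed in 1 of 9 fits with 1 library left out. That was the fit without cKO replicate 2, where the genotype difference rests on males.

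Cd52, a small surface glycoprotein of leukocytes, held 17.9, 18.7, 14.7, 28.1 and 28.0 normalized counts in WT replicates 1 to 5 and 44.8, 33.3, 56.1 and 34.9 in cKO replicates 1 to 4. The groups did not overlap, and the log2 difference was 0.92 ± 0.296 (SE, 1.89-fold higher, limma adjusted p = 0.258; 0.60 without WT replicate 1). Cst3, a secreted protease inhibitor that astrocytes and neurons express as well, differed by 0.25 ± 0.0617 (SE, limma adjusted p = 0.150), by 0.08 without cKO replicate 2 and by 0.41 without WT replicate 1. Cst3 also passed in 1 of 9 fits with 1 library left out. That was the fit without WT replicate 1, where the genotype difference rests on females.

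Of 20 ligands and signalling partners that support microglia, 18 were tested and none passed. At an unadjusted limma p under 0.05, 0 were higher in cKO (4.94% of all genes) and 2 were lower (6.4% of all genes). Il34, the neuronal ligand of Csf1r, held 913, 1051, 949.6, 1016 and 991 normalized counts in WT replicates 1 to 5 and 846, 830.4, 788 and 832 in cKO replicates 1 to 4. Its groups did not overlap, and the log2 difference was -0.21 ± 0.0586 (SE, 984 ± 54.2 against 824 ± 25.3, SD, limma adjusted p = 0.185). Cx3cl1, the fractalkine ligand of Cx3cr1, was 19571 ± 496 in WT and 18086 ± 442 in cKO (SD), with no overlap and a log2 fold change of -0.08 ± 0.0354 (SE, limma adjusted p = 0.440). Tgfb2, a ligand of the TGF-beta pathway that sustains microglia, differed by -0.09 ± 0.0477 (SE, limma adjusted p = 0.513; -0.05 without cKO replicate 2).

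**Figure D4:**
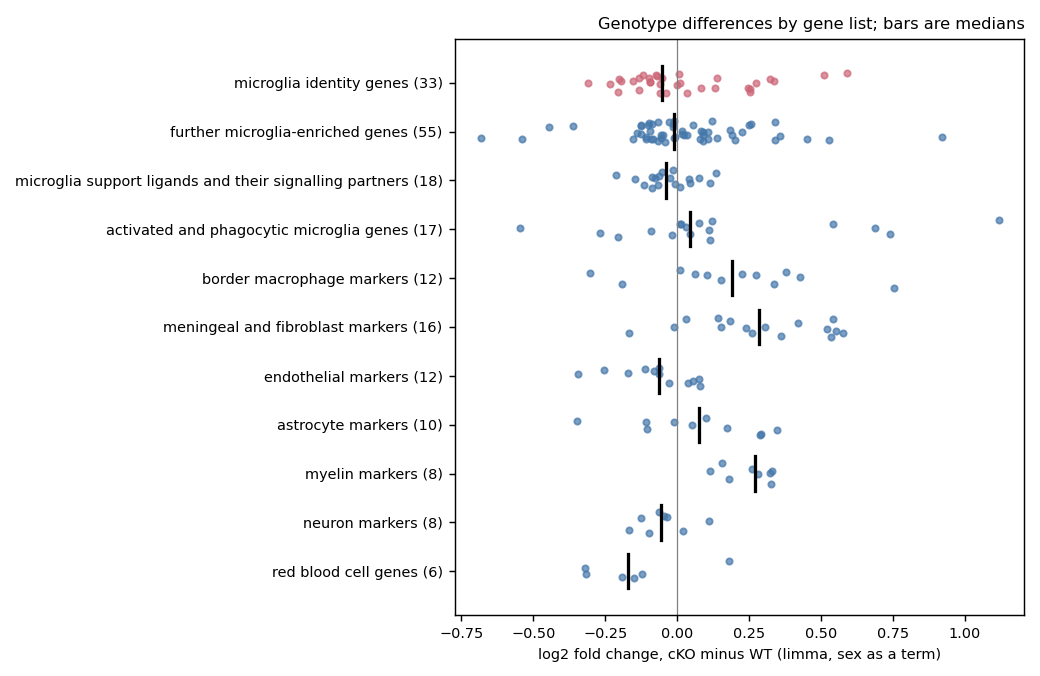
Log2 fold changes, cKO minus WT (x axis, limma with sex as a term), of every tested gene in the microglia list and in 10 further lists (y axis, number of genes in brackets), with the median of each list as a black bar. The 33 microglia genes spread on both sides of 0 around a median of -0.05.

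Markers of other cells that could carry the members were read beside them. None of the 17 markers of blood monocytes, neutrophils and lymphocytes reached a mean of 10. Their sum was 18.9 to 36.1 normalized counts per library in WT and 17.0 to 30.4 in cKO, the highest single value was 9.35, Nkg7 was at 0 in all libraries, and the monocyte receptor Ccr2 was 0 to 6.02 in WT and 0.94 to 4.84 in cKO. For the macrophages of the brain borders, 12 of 15 markers were tested and none passed. At an unadjusted limma p under 0.05, 1 was higher in cKO (4.94% of all genes) and 1 was lower (6.4% of all genes). The median log2 fold change of the 12 was 0.19, with 2 of them below 0 (8715 of 17036 among all genes). The sum of the 15 markers was 3506 to 3835 normalized counts in WT and 3547 to 3952 in cKO, and no marker was at 0 in all libraries. Most of this sum came from Maf, Stab1 and Dab2, so it says little about the other markers. Mrc1, the mannose receptor, was 355 to 446 in WT and 408 to 468 in cKO. Stab1, a scavenger receptor, differed by -0.19 (limma adjusted p = 0.317), F13a1 by 0.38 (limma adjusted p = 0.406) and Cd163 by 0.43 (limma adjusted p = 0.522). Without WT replicate 1, F13a1 differed by 0.15 and Cd163 by -0.08.

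The 16 meningeal and fibroblast markers held 6 that were higher in cKO (4.94% of all genes) and 1 that was lower (6.4%) at an unadjusted limma p under 0.05, with a median log2 fold change of 0.28 and sums of 11483 to 15705 normalized counts in WT and 13525 to 15924 in cKO. Col1a1 differed by 0.52 (limma adjusted p = 0.129), Col3a1 by 0.55 (limma adjusted p = 0.133) and Pdgfra, also a marker of oligodendrocyte precursors, by -0.17 (limma adjusted p = 0.161). Without WT replicate 1, Col1a1 differed by 0.31 and Col3a1 by 0.33. Each of these collagen genes passed in 1 of 9 fits with 1 library left out. The 8 neuron markers summed to 210293 to 215813 in WT and 198220 to 203061 in cKO. Of 6 red blood cell genes tested, 5 had a fold change below 0. The sums of all 7 genes of that list were 2074 to 3449 in WT and 1741 to 2385 in cKO. The part of these cells in the differences of the microglia genes was not tested.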

How the data were processed

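Per the labels' protocols, total RNA of 9 hippocampi was made into libraries with a directional kit in 1 round. The submitters' processing notes name GRCm39, STAR 2.7.10b, DESeq2 1.41.8, FastQC 0.12.1 and cutadapt 4.4. No counter, annotation or strand setting is named in the labels. The deposited table gives each gene a signal in each library, and its values behave as read counts scaled by a factor of the library. Division by that factor (0.943 to 1.08) returned reads that were whole within 0.1 for 100% of values. For cKO replicate 1 and WT replicates 1 and 4 the factor is close to 1, so that check says little. Depth was similar in all libraries, and counting error is larger for low genes.

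Replicate numbers follow record order. No 2 libraries of a group agreed within sampling noise (chi-square per gene of 3.62 to 12.9). limma 3.58.1 (R 4.3.3, limma-trend) was fitted to log2(normalized count + 1), with terms for sex and genotype, over genes with a mean of at least 10. p-values were adjusted over all of these genes by Benjamini-Hochberg, with a threshold of 0.05. Fold changes and log2 differences are on that scale, which understates low genes, and can differ from the ratio of means because of the sex term. A further fit held the interaction. The scripts were tested on simulated counts. Alternatives were other pseudocounts (0.5 and 5), other filters and scalings, edgeR 4.0.16 and DESeq2 1.42.0 on recovered reads, males or females alone, a model without sex, and libraries left out. Exon lengths came from GENCODE M21, and promoters from RefSeq on GRCm38.p6. The motifs were chosen after values were known. Python 3.11.15, pandas 2.3.3, numpy 2.4.6 and matplotlib 3.10.9 were used.

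The members and lists were chosen with earlier results of these data known. Genes were named by rule: all members (library values for the 12 of smallest p and for any whose groups did not overlap), up to 3 genes of smallest p per further list beside those that passed, up to 3 members for sex and for interaction, overlapping genes and close copies. Library values of Ptprc, Tmem119 and Gpr34, and Mrc1 and Ccr2, were added after their values were seen.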

Additional observations from a re-analysis of the deposited data

Results flagged for a closer look

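In 70 tests of a group of 4 or 5 libraries for a single library far from the rest, 2 stood apart, and chance alone does so in about 1 in 20 such groups. Selplg, a ligand of selectins, was 344 normalized counts in WT replicate 3, with the other 4 WT libraries at 287 to 302. That gap was 0.736 of the range of the group, above the 95% limit of Dixon's test. Itgb5, an integrin beta chain, was 1143 in cKO replicate 2, with the other 3 cKO libraries at 1046 to 1060.0. That gap was 0.854 of the range, also above the limit.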

How the results depend on the processing

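All genes that passed numbered 59. There were 3 in males alone, 11 in females alone, 15 without WT replicates 2 and 5 together (the WT libraries of lowest Slc38a3), 199 with DESeq2, 216 without the sex term, and 10 to 65 when 1 library was left out. The members that passed numbered 0, and 1 with each library scaled to the members' mean, 1 with DESeq2 and 2 without the sex term. Leaving out 1 library gave 0 in every case. The median of the members, -0.05, was -0.092 without the sex term, 0.0084 in females alone and -0.072 to 0.0084 with 1 library left out.

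Over 21 alternatives, the 13 members described with all library values kept their direction wherever they were tested, as did 23 of all 33, and 10 changed it at least once. The 13 were picked by small p or separate groups in these same libraries, which favours a kept direction. Scaled to the members' mean, Csf3r was at -0.017, Aif1 at -0.018 and Itgb5 at -0.026. Without the sex term, Gpr34 was at -0.090, Csf3r at -0.033, Aif1 at -0.0071 and Itgb5 at -0.025. In females alone, Inpp5d was at 0.0063, Laptm5 at 0.0084, Selplg at 0.10, P2ry6 at 0.032 and Csf3r at -0.14. In males alone, Fcer1g was at 0.034, Tyrobp at -0.052, Gpr34 at -0.080, Aif1 at -0.066 and Itgb5 at -0.072. With 1 library left out, the ranges were -0.13 to 0.0063 for Inpp5d, -0.092 to 0.0084 for Laptm5, -0.22 to 0.10 for Selplg and -0.19 to 0.032 for P2ry6. They were -0.14 to 0.17 for Csf3r, -0.066 to 0.097 for Aif1, -0.33 to 0.034 for Fcer1g, -0.052 to 0.21 for Tyrobp, -0.080 to 0.14 for Gpr34 and -0.072 to 0.068 for Itgb5. The cause was not tested.

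No paired analysis was possible because the labels give the groups no shared replicate numbers. Cd14 was not tested with a mean of at least 50. Genotype and sex are split unevenly, and the sex term rests on 1 WT male and 1 cKO female. Counting error limits the lowest members.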

Other observations

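Genes of activated and phagocytic microglia were read from a list of 25, of which 17 reached a mean of 10 normalized counts. None passed by limma, and the median log2 fold change of the 17 was 0.04. At an unadjusted limma p under 0.05, 2 were higher in cKO (4.94% of all genes) and 3 were lower (6.4% of all genes). Igf1, a growth factor made by microglia and other cells, was 1187, 1207, 1075, 1323 and 1290.4 normalized counts in WT replicates 1 to 5 and 960.6, 979, 1041 and 1059 in cKO replicates 1 to 4. The groups did not overlap, and the log2 difference was -0.27 ± 0.0734 (SE, limma adjusted p = 0.176). Ch25h, the cholesterol 25-hydroxylase, was 10.2 ± 2.83 in WT and 22.3 ± 8.04 in cKO (SD), with cKO replicate 3 at 10.6 among the WT values (log2 fold change 1.12 ± 0.395, SE, limma adjusted p = 0.309). Gpnmb, a transmembrane glycoprotein of phagocytes, was 19.9 ± 2.82 in WT and 32.9 ± 11.7 in cKO (SD, log2 fold change 0.69 ± 0.291, SE, limma adjusted p = 0.400).

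Among the markers of other brain cells, the endothelial receptor Flt1 passed and fell (log2 fold change -0.34, limma adjusted p = 0.0417), 1 of 12 in its list. Of all genes, 0.346% passed. Of 10 astrocyte markers, S100b and Gfap rose (0.35 and 0.29, limma adjusted p = 0.0141 and 0.0420) and the water channel Aqp4 fell (-0.35, limma adjusted p = 0.00206). With 1 of the 9 libraries left out in turn, Flt1 passed in 1 of 9 fits, Gfap in 1, S100b in 7 and Aqp4 in 8, and none of these 4 genes passed without cKO replicate 2 (limma adjusted p = 0.0679 for Aqp4 and 0.502 for Flt1). None of 8 myelin markers passed by limma (1 higher at an unadjusted p under 0.05), nor any of 8 neuron markers (1 higher and 3 lower). Over all genes, 4.94% were higher and 6.4% lower in cKO at that unadjusted threshold.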
